A study of Mus musculus with 2 samples.

Results

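Brown adipocytes burn fuel to make heat, and 10 genes that mark their identity or carry out this task were followed in total RNA of the mouse adrenal gland. They were taken by symbol and joined by gene identifier to the gene tables, where all 10 were found among 55536 annotated genes. The genes have 3 roles. Ucp1, Cidea, Elovl3 and Dio2 are effectors of heat production and lipid handling. Prdm16, Ppargc1a and Ppargc1b are coactivators, and Ebf2, Zic1 and Lhx8 are transcription factors linked to the brown fat lineage. RNA came from adrenal glands of 10-day-old female B6CASTF1/J mice, an F1 hybrid strain, with 1 group, no treatment and 2 libraries. Each library was made from 300 ng of total RNA with a directional kit and contains ERCC spike-ins. Per the labels the tissue samples came from differently numbered females, but both library descriptions carry 1 female number and 1 cDNA number, and the donor entry is shared. Separate animals behind the n of 2 are therefore not established. Every SD and p-value thus measures only the spread or the counting error between these 2 samples, which may be technical. The libraries were not alike in content, as the kidney, liver and muscle markers given further on show.

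In brown fat, noradrenaline from sympathetic nerves acts on beta-adrenergic receptors and raises cyclic AMP, which releases fatty acids and induces thermogenic genes. Ucp1 then lets protons return to the mitochondrial matrix without making ATP, so that the energy of fuel oxidation leaves as heat. Dio2 makes active thyroid hormone inside the cell, Elovl3 lengthens fatty acids and Cidea sits on lipid droplets. Ebf2 and Prdm16 act in setting up the brown programme, while Ppargc1a and Ppargc1b drive mitochondrial gene expression. Fat with brown features is known to lie around the kidney and adrenal gland in young mice.

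The promoters of the effectors Ucp1 and Dio2 and of the coactivator Ppargc1a are shown because cyclic AMP is known to induce all 3 genes. RefSeq sequences (GRCm38.p6) were held for 6 of the 10 genes, and the 250 bases before the start site are printed, 5′ to 3′ on the strand of the gene. Capitals mark TGACG, part of the cyclic AMP response element TGACGTCA, and the TATA-box letters TATAAA. Both strands were searched, and every full element also holds the shorter motif. The Ucp1 window is chr8:83290098-83290347 (plus strand), that of Dio2 is chr12:90739039-90739288 (minus strand) and that of Ppargc1a is chr5:51567726-51567975 (minus strand). The RefSeq start of Dio2 lies 600 bases upstream of the start annotated in GENCODE M21. The Ppargc1a window lies before an upstream first exon, whose start is 13.8 kb from that of Ppargc1a-203, the transcript with the largest share. Transcripts from the downstream first exon took 68.8% to 78.6% of the gene's level over both libraries and both deposited quantifications. In 1 of these quantifications the rest was Ppargc1a-202 alone, a short model of 488 nt with 31.9 and 41.7 counts. The share of the upstream start is therefore uncertain.
Ucp1: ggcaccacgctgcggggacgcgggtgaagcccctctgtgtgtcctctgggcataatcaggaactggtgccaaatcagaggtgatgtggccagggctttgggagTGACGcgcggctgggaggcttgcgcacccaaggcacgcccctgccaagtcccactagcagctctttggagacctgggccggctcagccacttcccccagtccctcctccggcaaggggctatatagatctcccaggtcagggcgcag
Dio2: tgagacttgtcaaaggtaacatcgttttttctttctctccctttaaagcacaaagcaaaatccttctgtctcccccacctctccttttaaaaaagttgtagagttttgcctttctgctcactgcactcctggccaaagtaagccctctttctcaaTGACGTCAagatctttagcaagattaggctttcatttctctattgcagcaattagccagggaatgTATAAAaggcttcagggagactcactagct
Ppargc1a: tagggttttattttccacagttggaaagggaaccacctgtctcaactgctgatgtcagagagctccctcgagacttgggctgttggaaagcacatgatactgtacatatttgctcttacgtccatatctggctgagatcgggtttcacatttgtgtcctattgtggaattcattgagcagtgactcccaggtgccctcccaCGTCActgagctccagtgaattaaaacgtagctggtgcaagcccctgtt

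The Dio2 window held the full element TGACGTCA, whose first base was 95 bases before the start, and TATAAA 30 bases before it. Of 32851 mouse promoter windows of 300 bases, which also cover 50 bases after the start, 1.79% held TGACGTCA and 13.6% held TATAAA on either strand. The Ucp1 window held 1 TGACG, 147 bases before the start, and the Ppargc1a window held 1 on the opposite strand, read as CGTCA, 49 bases before the start. TGACG was held by 20.8% of all windows. None of these motifs lay in the windows of Prdm16, Zic1 and Lhx8. The lineage factor Zic1 and the coactivator Prdm16 had the windows richest in CpG, with 31 and 24 CpG, and Dio2 and Lhx8 the poorest, with 3 and 4. The median over all windows was 7. A match describes the letters in the window only, and no binding was measured here.

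The libraries held 35287805 expected counts on annotated genes in replicate 1 and 33068267 in replicate 2. Levels are given in TPM, a share of all transcripts corrected for transcript length, and detected means 1 TPM or more in each of the libraries. Of the 10 genes, 8 were detected, compared with 25.5% of all annotated genes and 58.3% of nuclear protein-coding genes. The labelled tissue was checked against its markers. The 6 adrenal cortex markers summed to 3796 and 4098 TPM in replicates 1 and 2, and the 5 chromaffin cell markers to 1032 and 1000 TPM. The 8 general adipocyte markers summed to 3270 and 3768 TPM, and all 8 were detected. Markers of other tissues were also high. The 6 liver markers summed to 5423 and 1050 TPM, above the cortex sum in replicate 1. The 6 muscle markers summed to 2961 and 987 TPM, and the 6 kidney tubule markers to 0.860 and 215 TPM.

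Ucp1 stood at 978 TPM in replicate 1 and 1302 TPM in replicate 2, a mean of 1140 ± 229 TPM (SD, n = 2). Among 21938 nuclear protein-coding genes it ranked 16 in replicate 1 and 6 in replicate 2, and it took 0.287% and 0.398% of their TPM. By mean level it ranked 10, directly below the beta-globin gene Hbb-bs (1169 TPM) and the cytochrome c oxidase subunit gene Cox6b1 (1164 TPM). Directly below it came the alpha-globin gene Hba-a2 (1062 TPM) and Cox8b (1041 TPM), a cytochrome c oxidase subunit gene that is itself enriched in brown fat. The level of Ucp1 lay within the spread of these neighbours, since Hbb-bs ranged from 875 to 1462 TPM. Ucp1 (ENSMUSG00000031710.4) lies on chromosome 8 from 83290352 to 83298452 in mm10, with 6 exons and 307 coding codons in its only annotated transcript.

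Cidea was the next most abundant, at 445 TPM in replicate 1 and 534 TPM in replicate 2. Its mean of 489 ± 62.5 TPM (SD, n = 2) ranked 58 among nuclear protein-coding genes. Its neighbours in level were the ribosomal protein gene Rps24 (499 TPM), Coq8a (491 TPM), which acts in coenzyme Q synthesis, the translation factor gene Eef2 (488 TPM) and the cytochrome c oxidase subunit gene Cox5a (482 TPM). Within a library Ucp1 exceeded Cidea by 1.14 in replicate 1 and 1.29 in replicate 2 on the log2 scale of TPM, or 2.31-fold on average. The ratio was thus of similar size in both libraries but somewhat higher in replicate 2, as were both levels.

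The other effectors were far lower. Dio2 stood at 3.99 and 5.28 TPM in replicates 1 and 2, a mean of 4.63 ± 0.912 TPM (SD, n = 2), from 767 and 943 counts. Elovl3 stood at 2.00 and 2.34 TPM, a mean of 2.17 ± 0.240 TPM, from 108 and 129 counts. Mean levels of the effectors therefore ranged from 2.17 to 1140 TPM, and both low members were still detected in each library. Dio2 lies on chromosome 12 and Elovl3 on chromosome 19.

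All 3 coactivators were detected at intermediate levels. Ppargc1b stood at 18.5 and 16.9 TPM (17.7 ± 1.14, SD, n = 2). Ppargc1a stood at 11.4 and 11.0 TPM (11.2 ± 0.283). The log2 ratio of Ppargc1a to Ppargc1b TPM was -0.70 in replicate 1 and -0.62 in replicate 2, so that the beta form was 1.58-fold higher on average, and the libraries did not overlap. Prdm16, a zinc finger coregulator of brown fat and muscle fates, stood at 5.89 and 4.74 TPM (5.31 ± 0.813). For comparison, the median level of detected nuclear protein-coding genes was 10.1 TPM.

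Of the lineage factors only Ebf2 was detected. It stood at 21.1 TPM in replicate 1 and 15.2 TPM in replicate 2, a mean of 18.1 ± 4.16 TPM (SD, n = 2). Lhx8, a LIM homeobox factor reported as a marker of classical brown fat, stood at 0.550 and 0.450 TPM from 24 and 17 counts. Zic1, a zinc finger factor reported as a marker of the same depots, stood at 0.0600 TPM from 7 counts and 0.240 TPM from 30 counts. Both lay under the detection limit of 1 TPM in each library, yet above the 3 counts that a count of 0 allows. Those 3 counts correspond to 0.0688 and 0.0794 TPM for Lhx8 and to 0.0257 and 0.0240 TPM for Zic1. Nuclear protein-coding genes held 34.0% and 32.7% of all TPM in replicates 1 and 2. Rescaled over those genes, Lhx8 stood at 1.62 and 1.38 TPM, past the limit, and Zic1 at 0.176 and 0.735 TPM. Whether Lhx8 counts as detected therefore depends on the scaling.

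By mean TPM the order was Ucp1, Cidea, Ebf2, Ppargc1b, Ppargc1a, Prdm16, Dio2, Elovl3, Lhx8 and Zic1. Ebf2 and Ppargc1b could not be ordered, because Ebf2 was higher in replicate 1 and lower in replicate 2. The same held for Prdm16 and Dio2. Every other pair of neighbours was separate in both libraries, and the second deposited quantification gave the same overlaps. The widest gap lay between Cidea and Ebf2, with a log2 difference of 4.77 ± 0.52 (SD, n = 2).

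**Figure D1:**
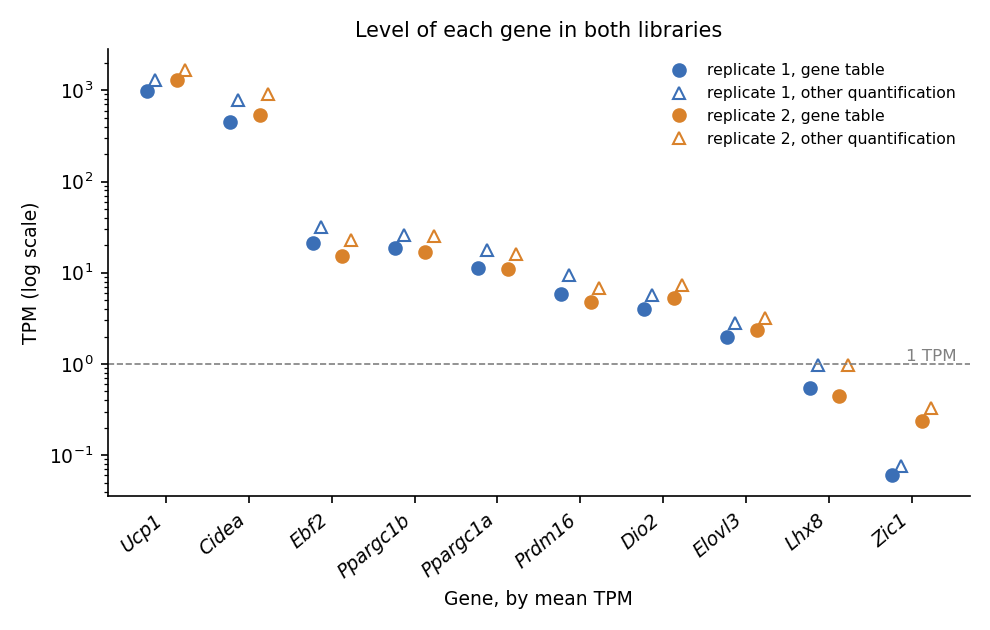
TPM (log axis) of the 10 genes in replicate 1 (blue) and replicate 2 (orange), from the gene table (circles) and from the other quantification (open triangles). The dashed line is the detection limit of 1 TPM. Ucp1 and Cidea stand at 445 to 1302 TPM in the gene table, and Lhx8 and Zic1 lie under the line.

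Levels were also set against Adipoq, which encodes adiponectin and is expressed by adipocytes of any kind, at 146 and 148 TPM in replicates 1 and 2. Ucp1 exceeded Adipoq by 2.94 ± 0.28 on the log2 scale of TPM (SD, n = 2), which is 7.67-fold, and Cidea exceeded it by 1.73 ± 0.17, or 3.31-fold. The remaining 8 genes were below it. Ebf2 and Ppargc1b were 8.23-fold and 8.34-fold lower, Ppargc1a was 13.2-fold lower and Prdm16 was 27.8-fold lower. Dio2 and Elovl3 were 32.1-fold and 68.0-fold lower. In the other quantification Ucp1 exceeded Adipoq by 2.38 and Cidea by 1.57 on the log2 scale, and 6 of the 10 ratios, that of Ucp1 among them, differed there by more than the SD between libraries. None of the 10 changed sign. In bulk tissue, fewer cells of a type and less RNA per cell cannot be told apart.

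By mean TPM, Ucp1, Cidea and Dio2 were each the most abundant gene of their family. Ucp1 exceeded its homologues Ucp2 (182 ± 4.38 TPM, SD, n = 2) and Ucp3 (15.8 ± 1.20 TPM), which encode mitochondrial carriers that are not thought to make heat in brown fat. Cidea exceeded Cidec, a lipid droplet gene of all fat (141 ± 13.8 TPM), and Cideb (3.85 ± 1.17 TPM), which is known from liver. Dio2 exceeded Dio1 (2.46 ± 0.742 TPM), an outer-ring and inner-ring deiodinase of liver and kidney, and Dio3 (0.565 ± 0.00707 TPM), which inactivates thyroid hormone. Dio1 stood at 2.99 and 1.94 TPM, so its listed levels did not overlap those of Dio2. In replicate 1, however, the deposited credibility interval of Dio1 (2.46 to 4.50 TPM) spanned that of Dio2 (3.64 to 4.19 TPM). In the other quantification Dio1 stood at 2.66 and 3.12 TPM and Dio2 at 5.65 and 7.32 TPM.

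Elovl3 was one of the lower elongases. Elovl5 stood at 62.6 TPM, Elovl1 at 16.9 TPM, Elovl6 at 16.0 TPM and Elovl2 at 7.27 TPM on average, while Elovl7 (1.56 TPM) and Elovl4 (0.630 TPM) were lower than Elovl3 on average. In replicate 2 alone Elovl7 and Elovl3 both stood at 2.34 TPM. Elovl2 was called higher in replicate 1 (2.39-fold) and Elovl7 higher in replicate 2 (3.16-fold) by the comparison of libraries described further on. Ebf2 and Ebf1 could not be ordered, since the log2 ratio of their TPM was 0.27 in replicate 1 and -0.26 in replicate 2. Ebf3 stood at 7.20 TPM and Ebf4 at 1.74 TPM. Ppargc1b and Ppargc1a were joined by the third family member, Pprc1, at 8.28 TPM. Mecom, the closest homologue of Prdm16, stood at 6.69 and 9.73 TPM, above Prdm16 in both libraries of the gene table. In the other quantification Mecom stood at 8.83 and 11.4 TPM and Prdm16 at 9.53 and 6.82 TPM, so that the pair could not be ordered there. The other Zic genes, Zic2 to Zic5, had at most 7 counts in a library. Of the other LIM homeobox genes tested, Lhx6 alone was detected, at 2.67 ± 0.0212 TPM.

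**Figure D2:**
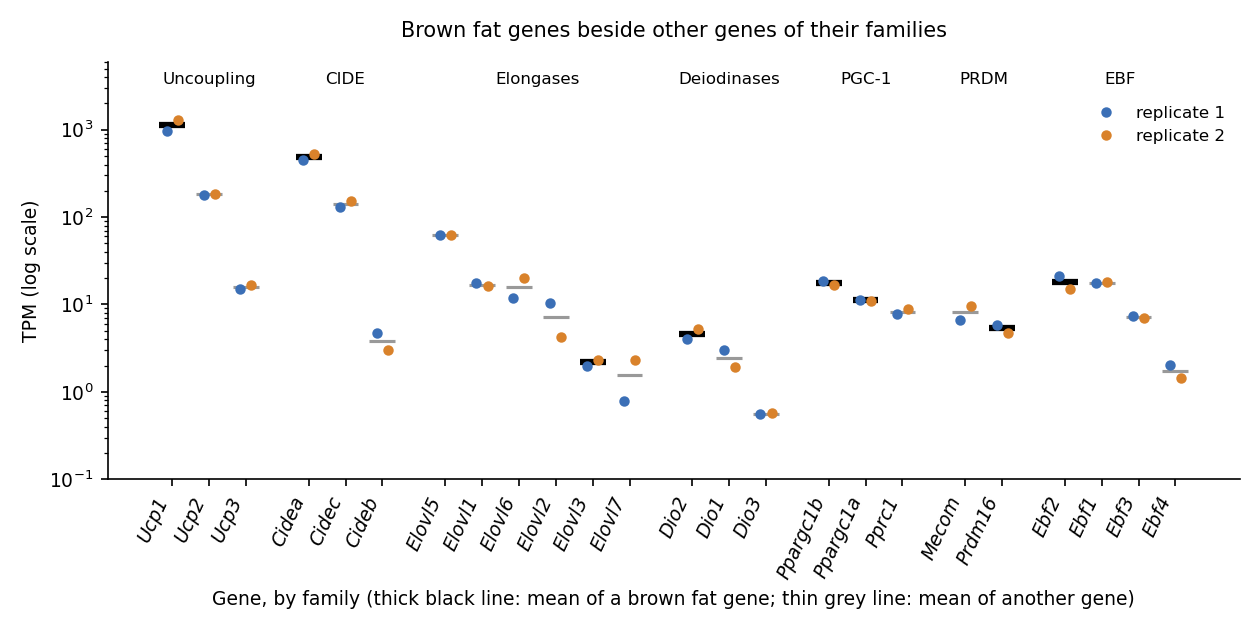
TPM (log axis) of the brown fat genes and of other genes of their families, with replicate 1 in blue, replicate 2 in orange and the mean as a line, thick and black for the brown fat genes. Ucp1, Cidea and Dio2 lead their families, and Elovl3 lies below 4 other elongases.

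How far the libraries differed was tested gene by gene. Counts were scaled by TMM, and an exact two-sided binomial test was run per gene with Benjamini-Hochberg adjustment over the 18883 genes whose counts summed to 20 or more. It covers counting error only and compares these libraries, without any check by replicates. A log2 ratio above 0 means higher in replicate 2. A gene was called at an adjusted p under 0.05 and a difference of at least 2-fold. Of all genes tested, 6.85% were called, and of the 10 brown fat genes 1 was called, namely Zic1. Without the fold limit, 26.5% of all genes and 5 of the 10 differed beyond counting error. The median log2 ratio of the 10 genes was 0.18, compared with -0.01 over all genes tested.

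All 4 effectors had ratios above 0, with log2 ratios from 0.31 to 0.46, and none reached 2-fold. Ucp1 was 1.38-fold higher in replicate 2 (95% interval 1.36 to 1.39, past the exact binomial test after adjustment). Cidea was 1.24-fold higher there (1.21 to 1.27, exact test, adjusted p = 3.07e-81), and Dio2 was 1.37-fold higher (1.24 to 1.51, exact test, adjusted p = 1.19e-09). Elovl3 had a ratio of 1.33 (1.02 to 1.73, exact test, adjusted p = 0.102), which did not pass. With counts this deep, a small difference between libraries passes a test of counting error.

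None of the coactivators differed beyond counting error after adjustment. The log2 ratio was -0.17 for Prdm16 (exact test, adjusted p = 0.0640), -0.11 for Ppargc1a (exact test, adjusted p = 0.118) and 0.04 for Ppargc1b (exact test, adjusted p = 0.629). The interval of Ppargc1b ran from 0.962 to 1.10-fold. Under scaling by total count the ratio of Ppargc1b was -0.02, so its sign is not fixed.

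Ebf2 differed in the other direction from the effectors. It was 1.31-fold higher in replicate 1 (95% interval 1.23 to 1.38, exact test, adjusted p = 4.19e-19), with a log2 ratio of -0.38. Zic1 was 4.53-fold higher in replicate 2, but on 7 and 30 counts, with an interval from 2.06 to 12.9 (exact test, adjusted p = 0.000292). Lhx8 had a ratio of 1.26 in favour of replicate 1, with an interval from 0.653 to 2.51 (exact test, adjusted p = 0.731).

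**Figure D3:**
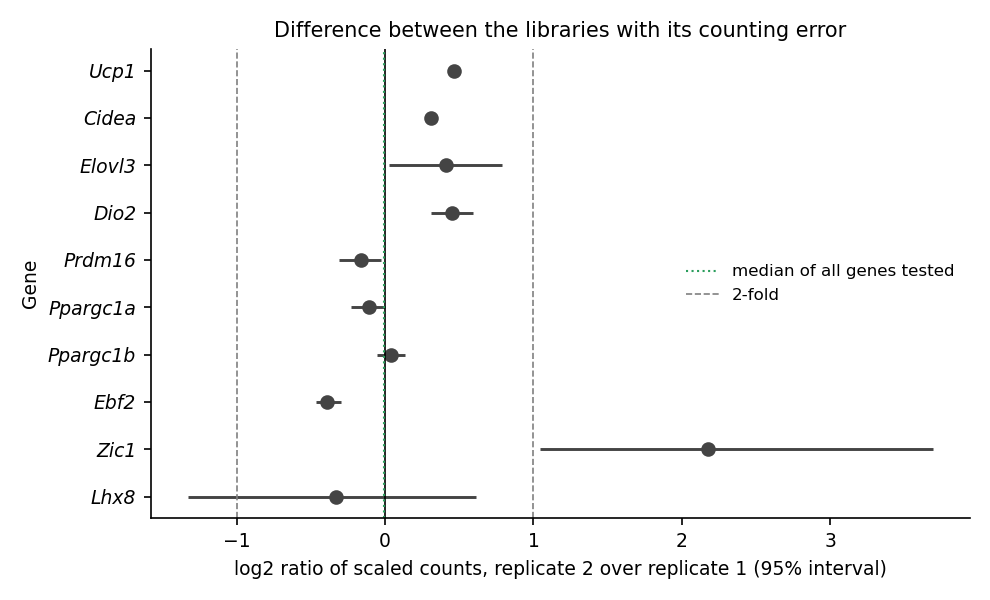
Log2 ratio of TMM-scaled counts, replicate 2 over replicate 1, of each gene, with 95% intervals that cover counting error only. Dashed lines mark 2-fold and the dotted line the median of all genes tested (-0.01). The 4 effectors lie at 0.31 to 0.46, Ebf2 lies at -0.38, and Zic1 alone lies past 2-fold.

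Markers of several cell types differed between the libraries as well. The 6 preadipocyte or fibroblast markers had a median log2 ratio of 0.58, with Dpp4 called at 2.67-fold, and summed to 379 and 558 TPM. The 3 highest of them were Col1a1 (330 TPM), Dcn (93.5 TPM) and Ly6a (19.3 TPM), genes of the fibroblast matrix and surface, with log2 ratios of 0.75, 0.11 and 0.91. The 8 adipocyte markers had a median of 0.19 and all 8 had ratios above 0, with none called. Their log2 ratios ran from 0.04 to 0.37, a range that overlaps the 0.31 to 0.46 of the brown fat effectors. The 3 highest in level, Fabp4 (1728 TPM), Car3 (584 TPM) and Lpl (313 TPM), had ratios of 0.37, 0.04 and 0.27, and Adipoq had 0.10. The 6 liver markers, the secreted protein genes Alb, Trf, Ahsg, Apoa1, Ttr and Apoc3, summed to 5423 TPM in replicate 1 and 1050 TPM in replicate 2, and all 6 were called higher in replicate 1. The 6 kidney tubule markers, Slc34a1, Kap, Lrp2, Slc12a3, Slc12a1 and Umod, summed to 0.860 and 215 TPM, and all 6 were called higher in replicate 2. Of the 6 muscle markers, Acta1, Mylpf, Tnnt3, Ckm and Myh1 were called higher in replicate 1 and Myh4 in replicate 2, with sums of 2961 and 987 TPM. The cortex markers, led by Hsd3b1, Cyp21a1 and Star, had a median log2 ratio of 0.12, and the chromaffin markers, led by Chga, Chgb and Pnmt, had -0.10. The 6 neuron markers, led by Stmn2, Tubb3 and Snap25, had a median of -0.23, and the 4 endothelial markers, led by Egfl7, Cdh5 and Pecam1, had 0.06. None of the genes in these 4 lists was called. No marker of the 9 lists was at 0 in a library, and the part of these differences in the ratios of the brown fat genes was not tested.

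**Figure D4:**
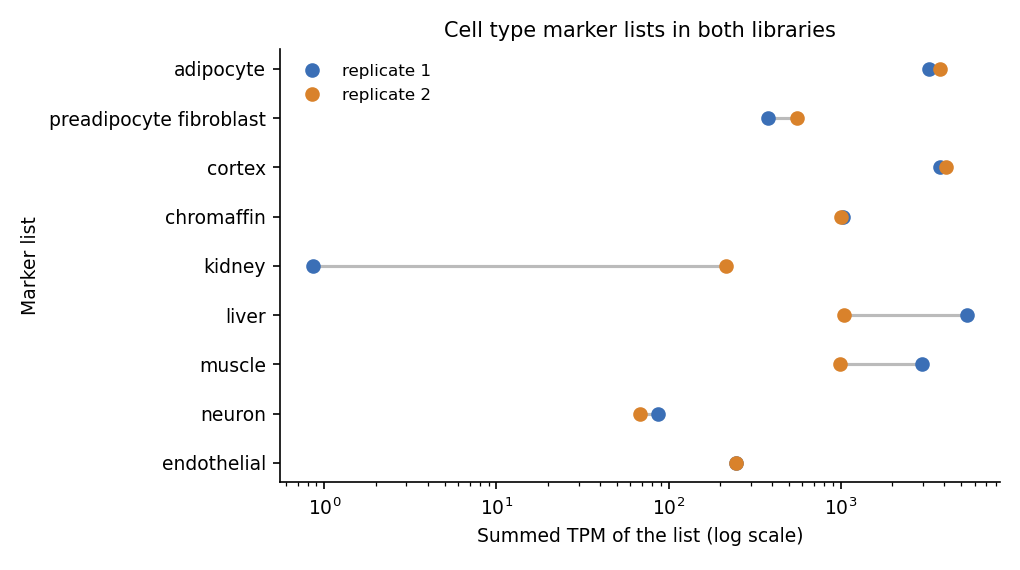
Summed TPM (log axis) of 9 cell type marker lists in replicate 1 (blue) and replicate 2 (orange). Adipocyte, cortex, chromaffin and endothelial sums lie close together in both libraries, and the kidney, liver and muscle sums lie far apart.

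Most other genes enriched in brown adipocytes were present alongside the 10. Of 25 such genes, 20 were detected, compared with 58.3% of nuclear protein-coding genes. Bmp8b, Fgf21, Epsti1 and Cited1 were under 1 TPM in both libraries, and Hspb7 was so in replicate 2 (0.780 TPM). Cox8b stood at 981 and 1100 TPM and Cox7a1, another oxidase subunit gene, at 533 and 579 TPM. Pdk4, which restrains glucose oxidation, stood at 203 and 288 TPM. Of 23 genes tested, 18 had ratios above 0, and the median log2 ratio was 0.21. Only the fatty acid binding protein gene Fabp3 (-1.27) and the small heat shock protein gene Hspb7 (-3.69) were called, both higher in replicate 1. Both genes are also known from muscle, and 5 of the 6 muscle markers were called higher in replicate 1 too. The part of muscle RNA in these calls, and in the levels of the other genes of this list, was not tested.

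The 13 genes of beta-adrenergic input and lipolysis were all detected. Gnas, which encodes the stimulatory G protein, stood at 2010 and 2072 TPM, and is expressed in many cell types. Pnpla2, the first lipase of fat breakdown, stood at 390 and 475 TPM, and Prkar2b, a regulatory subunit of protein kinase A, at 190 and 205 TPM. The fat receptor gene Adrb3 stood at 3.02 ± 0.912 TPM (SD, n = 2). None of the 13 was called, and the median log2 ratio was 0.17.

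Of 19 transcription factors and cofactors that act with the 10 genes, 18 were detected. Cebpb (94.7 TPM), Cebpa (80.8 TPM) and Thra (58.6 TPM) were highest, and Pparg, the master factor of fat cells, stood at 49.4 ± 0.856 TPM. Irf4, a factor that works with Ppargc1a in brown fat and is also known from lymphoid cells, stood at 1.44 and 4.15 TPM and was the only one called, at 3.71-fold higher in replicate 2. All 9 restrainers of the brown programme were detected, led by Ctbp1 (73.5 TPM), Tle3 (27.8 TPM) and Nrip1 (21.3 TPM), and none was called.

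Genes reported for white or beige fat were mostly low. Of 13, 9 were detected, and the highest were Nnat (57.6 TPM), Dpt (23.9 TPM) and Tcf21 (7.82 TPM), none of which is restricted to fat. The leptin gene Lep stood at 2.29 ± 0.0566 TPM (SD, n = 2), far below Ucp1 but near the brown fat effector Elovl3 (2.17 TPM). Hoxc8 of this list stood at 6.93 and 6.85 TPM, above Prdm16 and Dio2 in both libraries. Zic1 and Lhx8, reported as markers of classical brown fat, were not detected. Tbx1 was called higher in replicate 1 (5.55-fold), and Hoxc10 (3.57-fold) and Retn (3.00-fold) were called higher in replicate 2. Of 13 genes of heat production that does not need Ucp1, 12 were detected, led by the ADP/ATP carrier genes Slc25a5 (210 TPM) and Slc25a4 (152 TPM) and by Atp2a1 (135 TPM). In this list Sln, Ckmt2 and Atp2a1, all known from muscle, were called higher in replicate 1, with log2 ratios of -4.74, -3.09 and -1.14. Gatm and Alpl were called higher in replicate 2, with log2 ratios of 2.89 and 1.39. The muscle and kidney markers differed in the same libraries, and their part in these calls was not tested.

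Ucp1, Cidea and Dio2 have 1 annotated transcript each, so their gene level is their transcript level. For the coactivators, transcript choice bears on which protein can be made, and 2 stretches of sequence that differ between transcripts are shown. The first is a 31-base insertion of Ppargc1a-201 and Ppargc1a-204, at chr5:51490091-51490121 (mm10, minus strand), with 15 bases before and 10 bases after it. Capitals mark the stop codon that it brings into the reading frame after 270 codons, where Ppargc1a-203 runs to 797 codons. The second is the 175-base exon at chr4:154322271-154322445 (mm10, minus strand), which is coding in Prdm16-206 and absent from Prdm16-202. The longest coding part is that of Prdm16-206, and these transcripts have 1276 and 1178 coding codons. Both sequences come from the GENCODE M21 transcripts.
Ppargc1a insertion: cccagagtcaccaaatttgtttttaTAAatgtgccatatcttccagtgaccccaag
Prdm16 exon: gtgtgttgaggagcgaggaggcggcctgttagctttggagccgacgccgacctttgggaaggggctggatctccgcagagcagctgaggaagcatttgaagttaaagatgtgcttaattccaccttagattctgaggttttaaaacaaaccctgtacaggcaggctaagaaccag

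Transcripts of Ppargc1a with the insertion took 11.3% and 12.6% of the gene's TPM in replicates 1 and 2 in the gene table's quantification, and 21.7% and 29.2% in the other quantification. Ppargc1a-203, which encodes the full-length coactivator, was the largest share in both, at 45.9% and 43.9% in the first and 40.2% and 38.2% in the other. Ppargc1a-205 took 21.4% and 12.3% in the first, but 13.2% and 2.8% in the other. Transcripts from the upstream first exon, 13.8 kb before the downstream one and next to the promoter printed above, took 21.4% and 31.3% in the first quantification and 29.7% and 29.8% in the other. In the first quantification all of that share was Ppargc1a-202, a model of 488 nt with 31.9 and 41.7 counts, of which 97 bases lay outside the exons of Ppargc1a-203.

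For Prdm16, with 13 annotated transcripts, the long form without the 175-base exon was the largest. Prdm16-202 took 40.5% and 45.1% of the gene's TPM in replicates 1 and 2, and 31.3% and 37.4% in the other quantification. The 5 long transcripts with the exon together took 11.0% and 10.6%, and 14.1% and 16.1% in the other quantification. Prdm16-207, a short model of 757 nt, took 32.7% and 23.8% on 42.7 and 23.2 counts, but 14.5% and 13.6% in the other quantification. Of the non-coding models, Prdm16-212 took 6.4% and 16.2%, and 4.9% and 6.4% in the other quantification, while Prdm16-211 took 5.8% and 4.3%, and 13.4% and 17.5% there. Prdm16-210 and Prdm16-209 reached 10.2% and 11.9% in replicate 1 of the other quantification, and at most 3.6% in the first. By listed TPM the long form without the exon thus exceeded the forms with it in both libraries and both quantifications. The size of this difference is uncertain. In replicate 2 the deposited credibility interval of Prdm16-202 ran from 0.638 to 2.08 TPM, below the listed 2.14 TPM.

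The remaining genes showed where quantification decides the answer. Ppargc1b-201 was listed at 0 in both libraries of the first quantification, yet took 50.1% and 41.8% in the other, where Ppargc1b-202 took 43.6% and 53.1%. In the first quantification Ppargc1b-202 took 81.6% and 89.6%, and the short non-coding Ppargc1b-203 took 18.4% and 10.4%, against 6.3% and 5.1% in the other. The level of single Ppargc1b transcripts is therefore uncertain. Elovl3-201 and Elovl3-202, with 248 and 271 coding codons, differ in the end of the first exon. Elovl3-201 took 62.9% in replicate 1 and 5.8% in replicate 2, but 84.7% and 68.6% in the other quantification, all on at most 129 counts of the gene. Ebf2 gave alike shares throughout, with Ebf2-203 at 62.4% to 67.3%, Ebf2-202 at 22.6% to 26.4% and the retained-intron form Ebf2-204 at 10.0% to 10.9%. Its 3 protein-coding transcripts share 1 coding part. Transcripts with at least 10% of Zic1 (Zic1-201 and Zic1-202) and of Lhx8 (Lhx8-201 to Lhx8-205) rested on at most 18.3 counts each and are not compared.

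**Figure D5:**
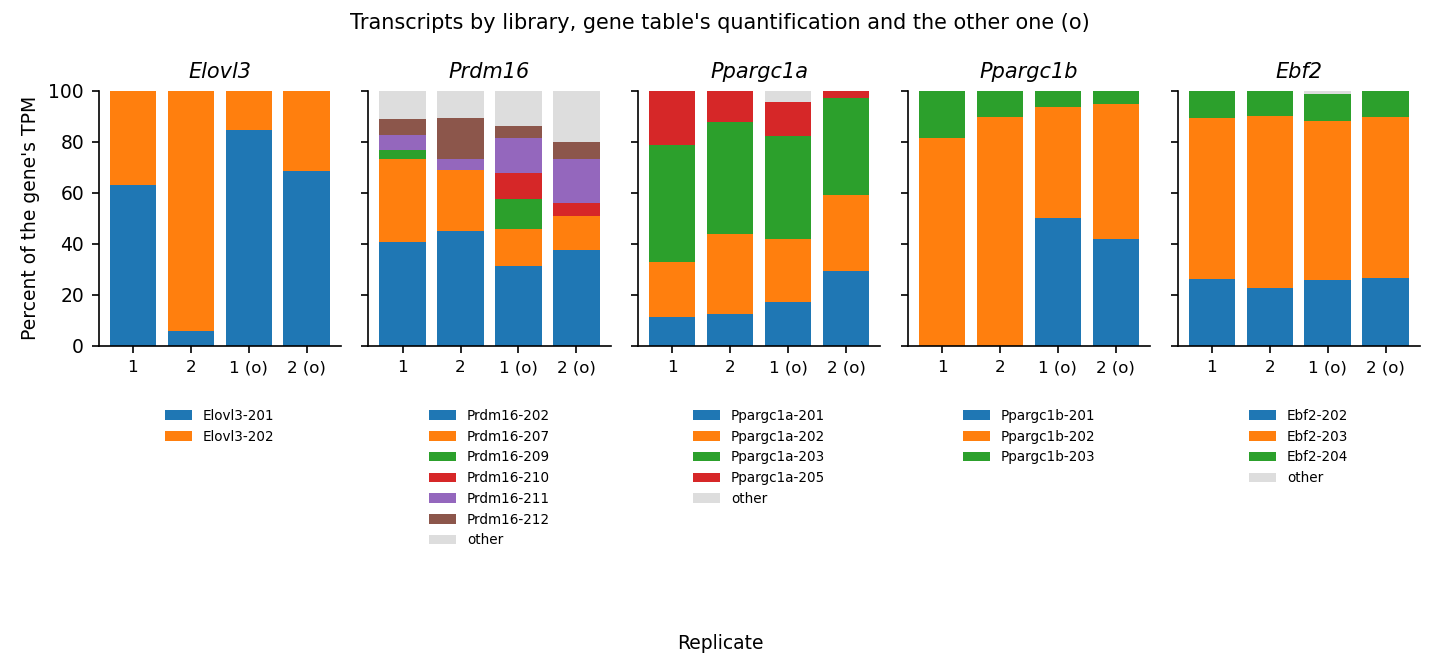
Percent of the gene's TPM taken by each transcript in replicates 1 and 2, in the gene table's quantification and in the other one (o), for 5 genes with several transcripts; grey is the sum of transcripts under 10%. Ebf2 bars are alike in all 4 columns, while Ppargc1b-201 appears in the other quantification only.

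The other quantification listed higher TPM for all 10 genes, with the same 8 detected. Genes outside the 10 were higher there too, at 1.92-fold for Adipoq, 1.75-fold for Gnas and 1.51-fold for Hsd3b1. For Ucp1 the factor was 1.31. Ucp1 stood at 1292 and 1687 TPM there and Cidea at 775 and 905 TPM. The log2 ratio between the libraries kept its sign in it for all 10 genes. It was 0.47 for Ucp1, 0.31 for Cidea, 0.35 for Elovl3, 0.47 for Dio2 and -0.38 for Ebf2. For the coactivators it was -0.15 for Prdm16, -0.11 for Ppargc1a and 0.10 for Ppargc1b. The ratio of Zic1 fell from 2.18 to 1.81, and that of Lhx8 went from -0.33 to -0.19. In the gene table the deposited credibility interval of Ucp1 ran from 951 to 967 TPM in replicate 1, below the listed 978 TPM, and from 1264 to 1284 TPM in replicate 2, below the listed 1302 TPM. Few reads lay on annotated genes that overlap the 10. The largest was Gm43605 within Ppargc1a, with 60.0 and 43.0 counts on the same strand, compared with 1495 and 1239 counts for Ppargc1a. Use of the strand in counting is not stated in the labels or headers. Over Elovl3, Pitx3 lies on the opposite strand with 34.0 and 4.00 counts.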

How the data were processed

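Total RNA was sequenced in 2 libraries of 1 group. The authors deposited expected counts, TPM, FPKM, percent of a gene's TPM per transcript and TPM credibility bounds (signal values) under the column names of RSEM, and estimated counts and TPM under those of kallisto. Assembly mm10 and GENCODE M21 are named per the file headers and deposited notes, and tool names and versions are not given in the sources used. Expected counts were rounded and scaled with TMM (edgeR 4.0.16, R 4.3.3) or DESeq2 1.42.0 size factors. The 26248 features with a bare number as ID took 1.96e-05% and 1.80e-05% of counts and stayed out, as did spike-ins.

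Libraries were compared by the exact binomial test (scipy 1.17.1, prior count 0.5 for log2 ratios, Benjamini-Hochberg at 0.05, 2-fold), because 1 group gives no contrast for edgeR's quasi-likelihood test and the smallest exact two-sided p that 2 libraries allow is 0.5. Ratios carry Clopper-Pearson 95% intervals. A count of 0 allows 3 counts, or 0.0850 and 0.0907 CPM in replicates 1 and 2, and these limits cover counting error only. The test was tested on simulated counts with counting error only, so that check does not cover other variation between libraries.

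Named were the 10 genes, family genes with a mean TPM of at least 1 (some lower ones were added after their values were seen), the 3 highest and all called genes of each other list (Adrb3, Pparg, Lep and Adipoq's library ratio were added likewise), 4 neighbours in level of Ucp1 and Cidea, and transcripts with at least 10% of a gene. Hoxc8 and the undetected genes of the list of other brown fat genes were also added after their values were seen. The members and the 27 lists (182 genes) were chosen with earlier results of these data known. Alternatives covered scaling, count minimum, fold limit, prior count, detection limit, quantification and each library alone.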

Additional observations from a re-analysis of the deposited data

How the results depend on the processing

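Of 135 alternative values, 102 stayed the same, 32 moved and 1 reversed, the log2 ratio of Ppargc1b, which was -0.02 under total count scaling. With a summed count of at least 100, 802 genes and 0 of the 10 brown fat genes were called, because Zic1 fell under that minimum, and with no fold limit 5007 genes and 5 of the 10 were called. The number of the 10 genes detected was 8 in the main setting. It fell to 5 at a TPM of at least 5 and was 8 with either replicate alone, so the range was 5 to 8. Rescaling over nuclear protein-coding genes was not among these alternatives. The median log2 ratio of the 10 genes ran from 0.11 to 0.20 over scalings, minimums and quantifications, and was 0.18 over detected genes only, an alternative chosen after seeing the data. Total count scaling moved the median of all genes to -0.07. Levels moved in 19 of 40 alternatives, all under the other quantification or rescaling over nuclear protein-coding genes. Ratios to Adipoq moved for 6 of 10 genes under the other quantification. The transcript with the largest share differed between quantifications for Elovl3 and Zic1. The comparison between libraries could not be repeated without a replicate, since that leaves 1 library. No paired analysis was possible because there is 1 group. Depth limits Zic1 and Lhx8, whose levels rest on 7 to 30 counts.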
